A study of Mus musculus with 4 samples.

Results

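The transcripts described here are 8 markers of CA1 pyramidal neurons in mouse hippocampus: Wfs1, Man1a, Itpka, Mpped1, Pou3f1, Fibcd1, Spink8 and Nov. They were chosen by gene symbol, and each has 1 record in the deposited table of 23466 gene symbols. All 8 were among the 18127 genes with enough signal to be tested. None passed the test over all genes. Fibcd1 was lower in the mutant libraries than in either wild-type library, while for 5 of the 8, Fibcd1 not among them, the log2 difference between the mutants was larger than that between the genotypes. The latter held for 57.1% of all genes tested.

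CA1 is the last field of the hippocampal trisynaptic circuit. Its pyramidal neurons receive Schaffer collaterals from CA3 and send axons to the subiculum and neocortex, and they are needed for spatial and episodic memory. The transcripts used to mark them are enriched there, although several are also made in other forebrain neurons. Wfs1, for example, is also expressed in upper layers of neocortex and in striatum. Camk2a-Cre is a recombinase under the promoter of a kinase of forebrain excitatory neurons, and CA1 pyramidal neurons are among the cells in which such drivers are known to act.

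RNA came from frozen hippocampus of C57BL/6N mice at postnatal day 30. The wild-type group was libraries 11 and 73. The mutant group was libraries 38 and 39, whose genotype is given as Atp6ap2Camk2aCre/0 and conditional het, and whose titles read ko. Atp6ap2 encodes the prorenin receptor, which also assists the vacuolar proton pump. The comparison asks which hippocampal transcripts differ when it is targeted in Camk2a-expressing neurons. Reads of the targeted gene itself, summed over the whole Atp6ap2 transcript, were at 2312 (wild-type 11), 2637 (wild-type 73), 2551 (mutant 38) and 2522 (mutant 39) scaled read equivalents and so showed no drop. The libraries are whole tissue. Fewer CA1 neurons and less RNA per neuron cannot be told apart in them, and RNA of cells without Cre is included.

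A scaled read equivalent is the deposited value, aligned bases over a transcript divided by 1 factor per library, divided again by the 42 bases that 1 read contributed. Before scaling, the libraries held 10023033 to 18339838 read equivalents over genes, wild-type 73 being the shallowest. For the markers this left from 233.5 read equivalents (Spink8 in wild-type 73) to 3781 (Itpka in wild-type 11). Counting error alone was thus at most 6.54% of a value for Spink8 and at most 4.24% for the other 7. Such an error covers the counting of reads only. Fold changes below are mutant over wild-type on log2(read equivalents + 1), from limma fitted on all genes with Benjamini-Hochberg adjustment. With 2 libraries against 2, an exact two-sided permutation test cannot go below p = 0.333.

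Among the surface and secreted products, Fibcd1 encodes a transmembrane receptor with a fibrinogen-like domain that binds acetylated sugars and matrix glycans. Fibcd1 had 2243 scaled read equivalents in wild-type 11, 2299 in wild-type 73, 1392 in mutant 38 and 1600 in mutant 39. Both mutants were below both wild-types, and the gap between the groups was wider than the gap inside either of them. The fitted fold change was 0.658 (log2 fold change -0.60 ± 0.11 SE, n = 2 per group; 95% confidence interval, CI, -0.86 to -0.35). Its unadjusted p in limma was 0.000784, and the adjusted p over all genes was 0.420, so it did not pass. In the authors' deposited table Fibcd1 had p = 8.54e-06, which became 0.00622 after a Benjamini-Hochberg adjustment made here over all records. That adjusted value was below 0.05 in 0.195% of the 31315 records, and Fibcd1 was the only marker of the 8 for which this was so. The authors' table and the limma fit use the same 4 libraries. The log2 difference was -0.52 between wild-type 73 and mutant 39, and -0.69 between wild-type 11 and mutant 38.

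Fibcd1 and Itpka are the markers whose promoter windows are shown, because Fibcd1 had the smallest p of the 8 and Itpka was the most abundant member per length. Both are the 250 bases before a RefSeq transcript start in build GRCm38.p6, written 5′ to 3′ on the gene's own strand. The Fibcd1 window is chr2:31846006-31846255 on the minus strand. It lies inside the RefSeq limits of the gene, which reach 31846964, and overlaps 0 GENCODE exons of Fibcd1. The Itpka window is chr2:119742087-119742336 on the plus strand, directly upstream of the gene. Capitals mark a cAMP response element half-site, TGACG or its reverse complement CGTCA.
Fibcd1: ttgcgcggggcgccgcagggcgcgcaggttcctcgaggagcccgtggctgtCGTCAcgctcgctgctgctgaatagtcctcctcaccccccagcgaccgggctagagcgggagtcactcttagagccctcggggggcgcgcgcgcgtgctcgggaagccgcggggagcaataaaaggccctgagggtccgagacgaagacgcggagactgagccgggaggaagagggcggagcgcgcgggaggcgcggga
Itpka: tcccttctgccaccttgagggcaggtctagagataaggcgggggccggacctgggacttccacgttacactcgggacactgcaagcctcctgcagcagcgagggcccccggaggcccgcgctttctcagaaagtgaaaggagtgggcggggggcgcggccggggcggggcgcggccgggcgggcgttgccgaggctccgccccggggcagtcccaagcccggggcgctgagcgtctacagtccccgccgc

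Both windows were rich in G and C, at 71.6% for Fibcd1 with 34 CpG and 72.8% for Itpka with 26 CpG. The Fibcd1 window held 1 half-site, which ends 195 bases before the start, and the Itpka window held 0. Of the 6 windows found for 5 of the markers, 2 had it, those of Fibcd1 and Man1a. In Man1a it ends 43 bases before the start, in a window that overlaps 1 GENCODE exon of Man1a. Over all 32851 windows of this length in the RefSeq table, 17.8% hold the half-site on either strand. The octamer ATGCAAAT, the element that POU factors such as the product of Pou3f1 bind, was in 0 of the 6 windows of these 5 markers, and is in 1.6% of all windows. The full element TGACGTCA, which contains the half-site on each strand, was likewise in 0 of the 6 and is in 1.55% of all windows. These are matches of letters only.

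Spink8 encodes a Kazal-type serine protease inhibitor. It had 279.4 and 364.6 scaled read equivalents in the wild-type libraries 11 and 73 and 267.8 and 386.1 in mutants 38 and 39. The groups overlapped fully, mutant 38 being the lowest library and mutant 39 the highest. Mutant over wild-type, the log2 value was 0.01 ± 0.22 (SE; 95% CI -0.50 to 0.53; adjusted p = 0.997 in limma).

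Nov, also named Ccn3, encodes a secreted matricellular protein that binds integrins. It had 1639 scaled read equivalents in wild-type 11, 3519 in wild-type 73, 1757 in mutant 38 and 1651 in mutant 39. Here 1 library stood apart: wild-type 73 was 2.15-fold above wild-type 11, while the other 3 libraries lay close together. With all 4 libraries the log2 fold change was -0.50 ± 0.31 (SE; 95% CI -1.23 to 0.24; adjusted p = 0.989 in limma). It was -1.05 without wild-type 11 and 0.05 without wild-type 73, in fits that leave 1 wild-type library and so hold no spread between wild-types. The direction of Nov therefore rested on which wild-type library was used.

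**Figure D1:**
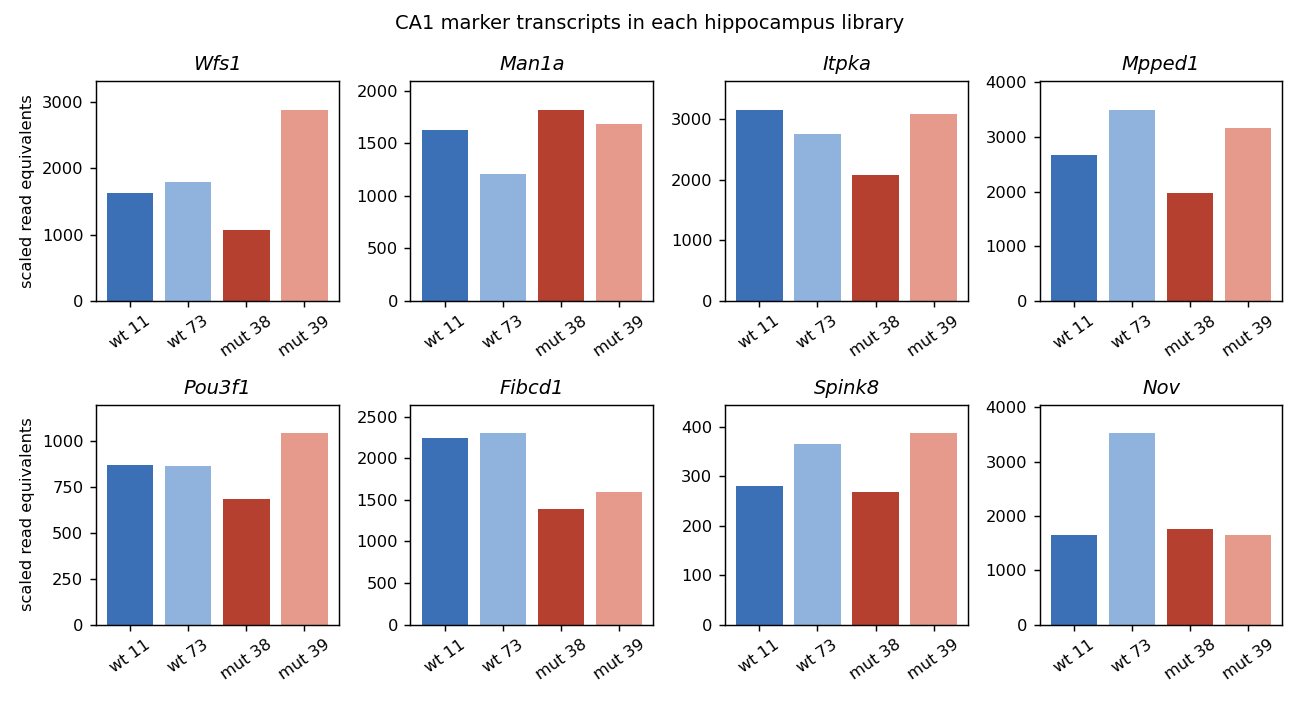
Scaled read equivalents (vertical axes, from 0, a separate scale for each gene) of the 8 CA1 markers in wild-types 11 and 73 (blue) and mutants 38 and 39 (red), 1 bar per library. Fibcd1 is low in both mutants, Nov is high in wild-type 73 alone (3519), and Wfs1 runs from 1069 in mutant 38 to 2885 in mutant 39.

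Among the proteins of the secretory pathway, Wfs1 encodes wolframin, a membrane protein of the endoplasmic reticulum that is lost in Wolfram syndrome. It is widely used as a histological marker of dorsal CA1. Wfs1 had 1631 and 1786 scaled read equivalents in the wild-type libraries 11 and 73, 1069 in mutant 38 and 2885 in mutant 39. The mutants lay on either side of the wild-types and were 2.70-fold apart, against 1.10-fold for the wild-types. The log2 fold change of 0.04 ± 0.40 (SE; 95% CI -0.90 to 0.98; adjusted p = 0.997 in limma) is the midpoint of these opposite deviations. It was 0.76 without mutant 38 and -0.67 without mutant 39.

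Man1a encodes a Golgi mannosidase that trims N-glycans. It had 1627 scaled read equivalents in wild-type 11, 1211 in wild-type 73, 1820 in mutant 38 and 1683 in mutant 39. Man1a was the only marker for which each mutant exceeded each wild-type, but mutant 39 was barely above wild-type 11. The difference between the wild-types was larger than the difference between the group means: 0.43 on the log2 scale between wild-types against a log2 fold change of 0.32 ± 0.15 (SE; 95% CI -0.04 to 0.67; adjusted p = 0.989 in limma). Without wild-type 73 it was 0.10, and without wild-type 11 it was 0.53.

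Of the enzymes, Itpka phosphorylates inositol trisphosphate and bundles actin in dendritic spines. Itpka had 3158 and 2758 scaled read equivalents in the wild-type libraries 11 and 73, 2087 in mutant 38 and 3095 in mutant 39. Mutant 38 was the low library and mutant 39 lay between the wild-types. The log2 fold change was -0.22 ± 0.18 (SE; 95% CI -0.65 to 0.22; adjusted p = 0.989 in limma), and 0.07 without mutant 38.

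Mpped1 encodes a metallophosphoesterase of brain. It had 2661 and 3499 scaled read equivalents in the wild-type libraries 11 and 73, 1980 in mutant 38 and 3157 in mutant 39. The order of the libraries was again led from below by mutant 38, with mutant 39 inside the wild-type range. Its log2 fold change of -0.29 ± 0.23 (SE; 95% CI -0.83 to 0.25; adjusted p = 0.989 in limma) became 0.05 without mutant 38.

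Pou3f1, also named Oct6 or Scip, encodes a transcription factor of the POU family and is the nuclear protein in the set. It had 870.0 and 868.1 scaled read equivalents in the wild-type libraries 11 and 73, 686.8 in mutant 38 and 1044 in mutant 39. The wild-types were nearly equal, and the mutants lay on opposite sides of them, as for Wfs1. The log2 fold change was -0.04 ± 0.19 (SE; 95% CI -0.49 to 0.41; adjusted p = 0.995 in limma). It was 0.26 without mutant 38 and -0.34 without mutant 39.

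**Figure D2:**
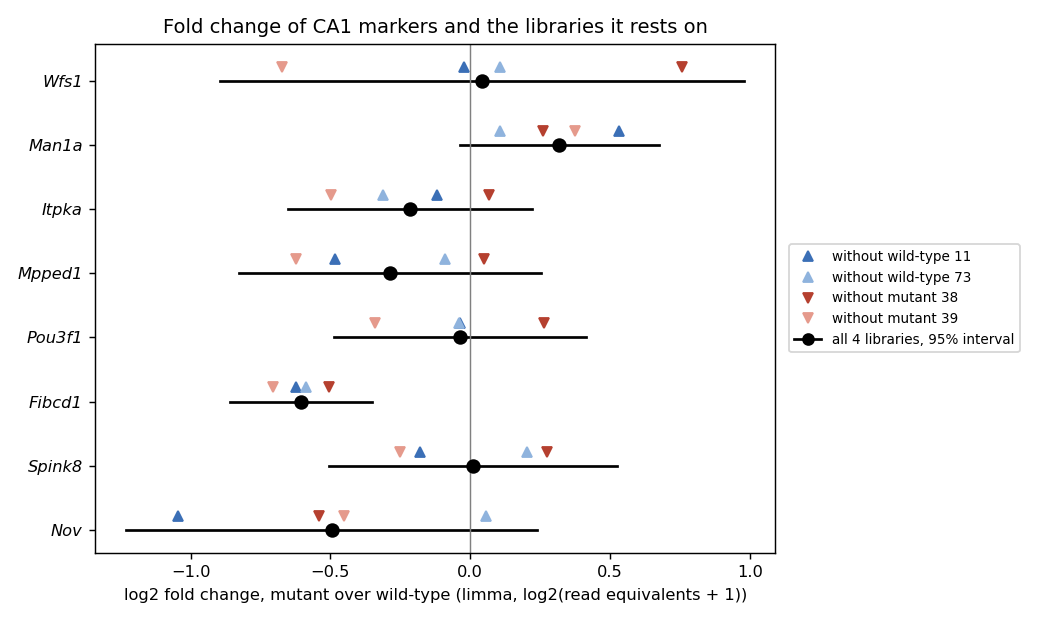
Log2 fold change of each CA1 marker, mutant over wild-type (horizontal axis, limma), with all 4 libraries (black points, lines are 95% confidence intervals, n = 2 per group) and with 1 library left out (triangles). The triangles of Fibcd1 lie between -0.71 and -0.50, those of Wfs1 run from -0.67 to 0.76, and those of Nov from -1.05 to 0.05.

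Counted together, 0 of the 8 markers passed at an adjusted p below 0.05 in limma, where 0.00552% of the 18127 genes did (1 gene). Counts with 1 library left out, where that library's group has no spread of its own, are given at the end. At an unadjusted p below 0.05 in the lower direction there was 1 marker, Fibcd1, beside 1.75% of all genes tested. The groups did not overlap for 2 of the 8, where this held for 33.3% of all genes: Fibcd1 in the lower direction (16.5% of all genes) and Man1a in the higher (16.8%). The median log2 fold change of the markers was -0.13, with 5 below 0 (48.7% of all genes tested were) and 3 above, and the median of all genes tested was 0.0067. That median changed sign when 1 library was left out: it was -0.48 without mutant 39, 0.17 without mutant 38, 0.0080 without wild-type 73 and -0.15 without wild-type 11. With all 4 libraries these data gave no direction for the markers as a set.

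The spread inside the groups was wide. The median absolute log2 difference between the mutants was 0.55 over the 8 markers, beside 0.12 over the 11674 tested genes with a mean of at least 100 read equivalents. Between the wild-types it was 0.29 beside 0.16. Mutant 38 was the lowest of the 4 libraries for 6 of the 8 markers, all except Man1a and Nov, which was so for 24.1% of all genes tested. It follows that these 6 were higher in mutant 39 than in mutant 38, by 0.20 (Fibcd1) to 1.43 (Wfs1) on the log2 scale. Man1a and Nov were lower in mutant 39, so that 6 of the 8 markers were higher there, beside 49.7% of all genes tested. Among 8 genes of forebrain excitatory neurons in general, 6 were also higher in mutant 39, as were 5 of 7 interneuron genes. In the CA3 and CA2 list it was 4 of 9, and in the dentate granule list 3 of 10. Of the forebrain excitatory genes, mutant 38 was lowest for Slc17a7, Nrgn, Camk2b, Cck and Tbr1, and not for Camk2a, Neurod2 or Grin2b. Markers read from 1 tissue sample share its dissection and depth, so these counts describe libraries.

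**Figure D3:**
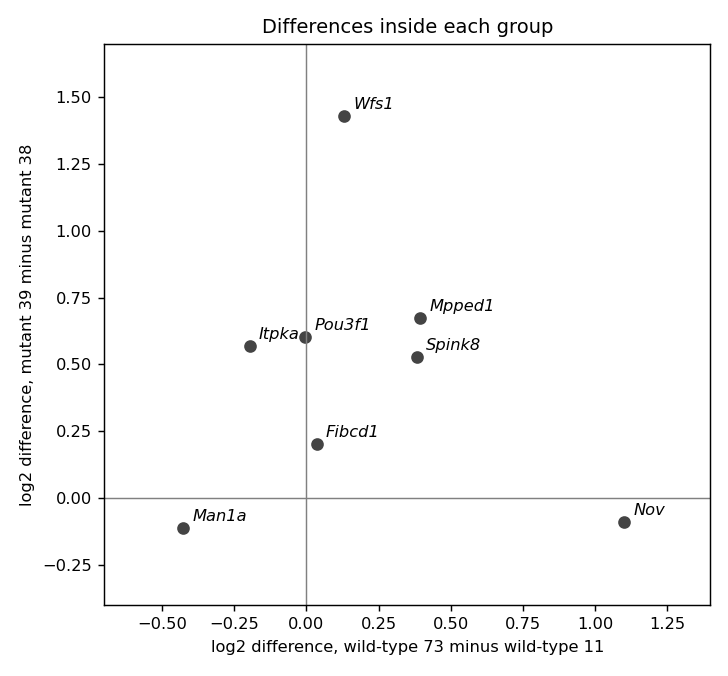
Log2 difference between the mutants (vertical axis, mutant 39 minus mutant 38) against that between the wild-types (horizontal axis, wild-type 73 minus wild-type 11) for the 8 CA1 markers, 1 point per gene. Wfs1 stands apart along the mutant axis at 1.43 and Nov along the wild-type axis at 1.10, while Fibcd1 is near 0 on the wild-type axis and at 0.20 on the mutant axis.

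RNA of neighbouring structures also differed between libraries. The 7 thalamus markers examined summed to 4533 scaled read equivalents in mutant 38 and to between 1389 and 1787 in the other 3 libraries, and all 7 were higher in mutant 38 than in mutant 39. Prkcd, a kinase gene of thalamic relay neurons, had 1841 in mutant 38 and 404.8 to 499.4 elsewhere. The 17 choroid plexus markers summed to 75800 in wild-type 11 and 126300 in mutant 38, against 7727 in wild-type 73 and 7996 in mutant 39. No thalamus or choroid plexus marker was at 0 in any library. For some markers of other cells the groups did not overlap, as for Fibcd1. All 8 myelinating oligodendrocyte markers had both mutants above both wild-types (16.8% of all genes did), with a median log2 fold change of 0.44 and summed levels of 63700 and 87980 in wild-type and 95980 and 108400 in mutant. Of 3 genes that mark the subiculum, the field next to CA1, the median was 0.65, with Slc17a6, which is also a thalamic gene, at 1.13 ± 0.14 (SE; adjusted p = 0.123 in limma, and 1.88e-06 after adjustment of the authors' deposited p). In limma 0 genes of these lists passed over all genes, and 7 of the 8 and 2 of the 3 had an unadjusted p below 0.05 in the higher direction (2.18% of all genes). No marker of either list was at 0. The part of tissue composition in the low CA1 values of mutant 38, or in Fibcd1, was not tested. With the level of choroid plexus markers added as a covariate, Fibcd1 had a log2 fold change of -0.60 (adjusted p = 0.00253 in limma, 1 residual degree of freedom). In that fit 109 genes passed, against 1 without the covariate. The covariate was computed from the same 4 libraries, and thalamus and oligodendrocyte markers were not in the fit. It therefore does not test what part tissue composition had in Fibcd1.

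A further 10 genes enriched in CA1, though less specific to it, gave a median log2 fold change of -0.02, with 5 below 0 and 5 above, and 0 passed over all genes in limma. Crym, whose product binds thyroid hormone, was the one with an unadjusted p below 0.05. It had 2537 and 3910 scaled read equivalents in the wild-type libraries 11 and 73 and 1892 and 1915 in mutants 38 and 39. Both mutants were lower, although the wild-types differed from each other by more than mutant 38 differed from wild-type 11 (log2 fold change -0.73 ± 0.19 SE, n = 2 per group; adjusted p = 0.989 in limma). In the authors' deposited table Crym had p = 3.58e-05, or 0.0208 after the same adjustment over all records. Ndst4, a heparan sulphate enzyme, had a log2 fold change of 0.27 ± 0.17, and Calb1, the calcium buffer calbindin, had -0.30 ± 0.18 (SE; adjusted p = 0.989 in limma for both).

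All 4 genes used for the ventral end of CA1 had log2 fold changes below 0, where 48.7% of all genes did, with a median of -0.71. In limma 0 of them passed over all genes, and 2 had an unadjusted p below 0.05 in the lower direction, beside 1.75% of all genes. Dcn, a small proteoglycan that is also made by meningeal fibroblasts, had 800.7 and 1059 scaled read equivalents in the wild-type libraries 11 and 73 and 472.7 and 258.9 in mutants 38 and 39 (log2 fold change -1.39 ± 0.28 SE; adjusted p = 0.641 in limma). Its records in the authors' deposited table had adjusted p-values of 0.000383 and 0.000747. Col5a1, a collagen chain, had -0.45 ± 0.15, and Gpc3, a surface proteoglycan, had -0.97 ± 0.44 (SE; adjusted p = 0.989 in limma for both). Htr2c, a serotonin receptor gene that choroid plexus expresses strongly, had 1168 in wild-type 11, 764.3 in wild-type 73, 1828 in mutant 38 and 433.8 in mutant 39. Htr2c was thus high in the libraries that were rich in choroid plexus markers. Dcn, Col5a1 and Gpc3 are matrix genes, and their levels in whole tissue are not those of CA1 neurons alone.

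Markers of the other hippocampal principal neurons were read in every library. The 9 markers of CA3 and CA2 had a median log2 fold change of 0.16 and the 10 of dentate granule neurons one of -0.26, with 0 called over all genes in limma in either list. At an unadjusted p below 0.05 there were 2 higher genes of the 9 (2.18% of all genes tested) and 3 lower genes of the 10 (1.75%). All 10 dentate values were below 0, beside 48.7% of all genes, the smallest p-values being those of C1ql3 (-0.37 ± 0.10 SE), C1ql2 and Glis3. In the CA3 and CA2 list, Map3k15 had 0.38 ± 0.13 and Cacng5 had 0.88 ± 0.35 (SE, n = 2 per group), Cacng5 being highest in mutant 38 at 483.2 read equivalents. The 8 genes of forebrain excitatory neurons in general had a median of -0.06, and Slc17a7, the vesicular glutamate transporter of hippocampal and cortical pyramidal cells, had 0.01 ± 0.14. Their median log2 difference was 0.30 between mutant 39 and mutant 38 and 0.23 between wild-type 73 and wild-type 11. For the 8 CA1 markers these medians were 0.55 and 0.08, and for the CA3 and CA2 list -0.11 and 0.25. No test of the difference between lists was made.

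**Figure D4:**
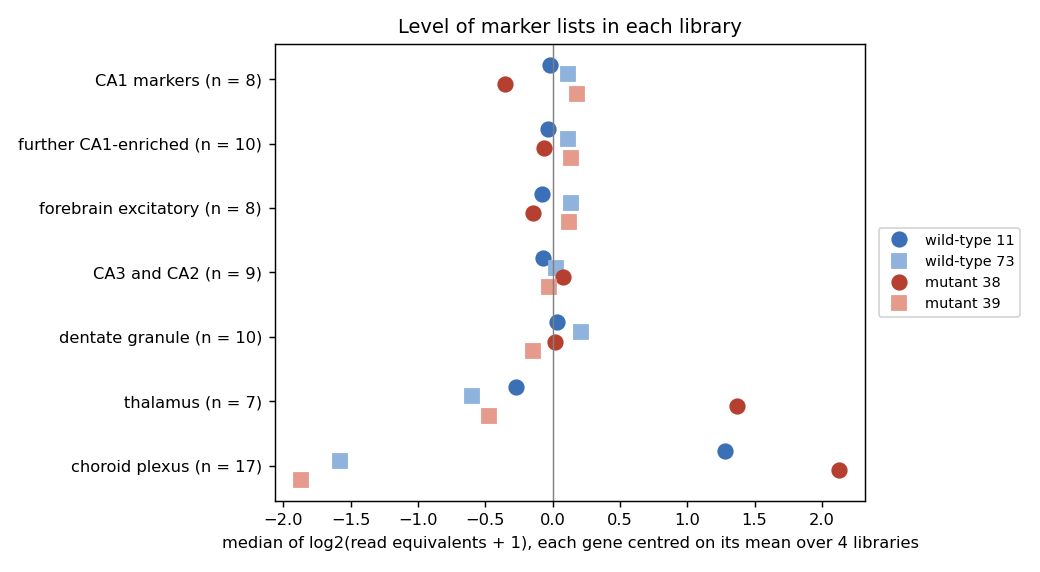
Median level of 7 marker lists in each library (horizontal axis, log2(read equivalents + 1) with each gene centred on its mean over the 4 libraries), blue for wild-type and red for mutant. For CA1 markers, mutant 38 is at -0.36 and the other 3 libraries lie between -0.02 and 0.18, while for thalamus mutant 38 is at 1.37.

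Fibcd1 shares its fibrinogen-like domain with 7 other genes examined, of which the tenascin gene Tnr had a log2 fold change of -0.11 ± 0.10, Tnc one of -0.16 ± 0.17, Angpt1 one of 0.34 ± 0.16, Angpt2 one of -0.28 ± 0.23 and Fgl2 one of -0.41 ± 0.36 (SE, n = 2 per group). Both mutants were below both wild-types for Tnr and Angpt2 (16.5% of all genes tested) and above them for Angpt1 (16.8%). Fcna and Fcnb had at most 4.67 read equivalents in any library. Of the class to which Pou3f1 belongs, Pou3f4 had 58.5 and 62.4 in the wild-types and 31.2 and 39.6 scaled read equivalents in the mutants (log2 fold change -0.76 ± 0.28), Pou3f2 had -0.31 ± 0.14 and Pou3f3 had -0.15 ± 0.12 (SE; adjusted p = 0.989 in limma for each). Both mutants were below both wild-types for Pou3f4 and Pou3f2 (16.5% of all genes tested), and not for Pou3f1 or Pou3f3.

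The CCN family of Nov also holds Cyr61 and Ctgf, which respond to injury and stretch. Cyr61 had 165.6 and 163.2 scaled read equivalents in the wild-type libraries 11 and 73 and 1242 and 678.8 in mutants 38 and 39 (log2 fold change 2.47 ± 0.26 SE; adjusted p = 0.123 in limma). In the authors' deposited table Cyr61 had p = 5.18e-20, adjusted here to 8.12e-16, and Ctgf had 0.00319, adjusted to 0.893. Ctgf had 167.6 and 275.2 in wild-type and 474.7 and 325.8 in mutant (log2 fold change 0.87 ± 0.27 SE; adjusted p = 0.989 in limma). Neither passed in limma, and Wisp1, Wisp2 and Wisp3 had at most 24.1 read equivalents in any library.

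The other kinases of Itpka's kind, Itpkb and Itpkc, had log2 fold changes of 0.10 ± 0.22 and -0.0088 ± 0.18 (SE, n = 2 per group). Among the mannosidases related to Man1a, Man1a2 had 0.17 ± 0.09, Man1b1 had 0.0042 ± 0.10 and Man1c1 had -0.21 ± 0.12. Both mutants were above both wild-types for Man1a2 (16.8% of all genes tested) and below them for Man1c1 (16.5%). Mpped2, the paralogue of Mpped1, had 0.16 ± 0.16. Of 5 other Kazal inhibitor genes only Spink10 was tested, at 17.9 to 26.4 read equivalents, and Spink2, Spink3, Spink4 and Spink5 were at or below 1 read equivalent in every library.

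Levels of different genes can be compared only per length, for which transcript lengths of GENCODE M21 were matched by RefSeq accession for all 8. In wild-type the mean was 1627 scaled read equivalents per kilobase for Itpka, 943.5 for Mpped1, 899.0 for Nov, 478.0 for Fibcd1, 451.0 for Wfs1, 419.3 for Spink8, 276.3 for Man1a and 225.8 for Pou3f1. Itpka was above every other marker in all 4 libraries, the nearest approach in wild-type being Nov in wild-type 73 at 1227 per kilobase beside 1517. Mpped1 and Nov overlapped between the wild-types, as did Spink8 with Fibcd1 and Wfs1. The lengths belong to a later annotation than the one behind the deposited values, so the order is approximate.

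Finally, genes were ranked by how near their centred log2 values lay to the mean profile of the 8 markers over the 4 libraries, among 11666 other genes with a mean of at least 100 read equivalents. That profile was -0.0094 in wild-type 11, 0.17 in wild-type 73, -0.32 in mutant 38 and 0.16 in mutant 39. The nearest 5 were Tesc, a calcium-binding protein gene (distance 0.037), Mras, a small GTPase gene (0.050), Eepd1 (0.054), Cacnb1, a calcium channel subunit gene (0.060), and Fam174b (0.063). Tesc had 443.7 and 511.8 scaled read equivalents in the wild-type libraries 11 and 73 and 355.1 and 491.4 in mutants 38 and 39. The markers themselves lay between 0.20 (Pou3f1) and 0.84 (Nov) from their mean profile. These 5 genes were picked for their small distance, so that they lay nearer than the markers follows from the ranking. A profile over 4 libraries can be matched by many genes, and the ranking is a description.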

How the data were processed

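Ribosome-depleted, strand-marked total RNA of 4 hippocampus samples was sequenced from a single end, per the labels' protocols. The submitters' processing notes name GSNAP, DESeq2 and mm9, with no versions or roles. What counted the reads, with which strand setting and annotation, is not given in the sources used here. The deposited values are signal: the authors summed aligned bases over each of 31315 records and divided them by 1 factor per library. In each library 100% of values were whole multiples of 1 step (tolerance 0.05), and the commonest low values were 42, 84 and 126 steps, hence 42 bases a read. The p-value column that the authors deposited is named after DESeq, and whether it was adjusted is not stated.

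Each value was divided by 42. A gene was represented by its record with the highest mean. Genes that reached 1 read equivalent in at least 2 libraries entered limma 3.58.1 as log2(read equivalents + 1) (R 4.3.3) with a variance trend, two-sided, adjusted over all genes at 0.05. Since the values are not counts, edgeR and DESeq2 were not run. The fit was tested on simulated data. The labels do not tie samples to animals, and p-values here reflect only sample-to-sample spread, which may be technical. Figures used matplotlib 3.10.9 in Python 3.11.15.

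The markers and all lists were chosen with earlier results of these data known. The genes named were the 8 markers, their relatives, up to 3 genes of each other list with the smallest p-values, Atp6ap2, Ttr and the 5 genes nearest to the mean profile. Not all are reported, and Htr2c, Prkcd and Slc17a7 were named after their values were seen. Promoter windows and sequences are from RefSeq (GRCm38.p6), whose table held 5 of the 8 markers. Coordinates of that build were not joined to the mm9 values.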

Additional observations from a re-analysis of the deposited data

How the results depend on the processing

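No paired analysis was possible because wild-type and mutant libraries have no replicate number in common. Of 17 alternatives, 15 gave a test. With 1 library left out, its group held 1 library and no spread, so p-values and counts of those fits take no spread from that group. The number of markers called was 0 in all but 2 of these: 1 without wild-type 11 (Nov), so that it ran from 0 to 1 with 1 library left out, and 1 with the choroid plexus covariate (Fibcd1). The adjusted p of Fibcd1 in limma lay between 0.00253 and 0.9999 and its log2 fold change between -0.71 and -0.50. The median log2 fold change of the markers ran from -0.48 to 0.17 with 1 library left out, and was 0.12 within wild-type 73 and mutant 39. The number of genes called over all genes, 1 with the main settings, ran from 1 to 37 with 1 library left out (8 and 7 when mutant 38 or 39 was left out, 37 for wild-type 11), and was 12 with a robust variance prior, 0 with no variance trend and 109 with the covariate. With no variance trend the marker with the smallest unadjusted p was at 0.0132.

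Single markers changed sign as follows. Leaving out 1 library gave a range of -0.67 to 0.76 for Wfs1, -0.62 to 0.049 for Mpped1, -0.34 to 0.26 for Pou3f1, -0.25 to 0.27 for Spink8, -0.50 to 0.069 for Itpka and -1.05 to 0.055 for Nov. Within wild-type 73 and mutant 39, Pou3f1 was at 0.27 and Itpka at 0.17. Within wild-type 11 and mutant 38, Wfs1 was at -0.61, Spink8 at -0.061 and Nov at 0.10. Spink8 was at -0.0049 when scaled by library total. For leaving out a library and for the pairs of libraries, the change follows from the values by library. When scaled by library total, the median of all genes tested went from 0.0067 to -0.0088, and Spink8 from 0.011 to -0.0049. Fibcd1 and Man1a kept their direction under all 17.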
